A study of Canis lupus familiaris with 60 samples.

Results

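Gene expression was compared between skin patched with house dust mite and skin patched with saline, 6 hr after application, in 6 sensitized Beagle dogs. The rule took every 6 hr array of these dogs, 6 from allergen sites and 6 from saline sites, so that 12 of the 60 arrays of the series were members and each dog gave 1 array of each kind. Probes entered the comparison when they were well above background on at least 5 of the 6 arrays of either side, which left 42023 of 60068 probes. The dogs were 2 to 3 years old and had been sensitized through the skin to the mite Dermatophagoides farinae, which makes them an experimental model rather than dogs with spontaneous disease. There were 4 males and 2 females. The allergen site received 75 mg of a mite paste and the saline site 50 µl of saline, and both were sampled as 8-mm punch biopsies. The nonsensitized comparison group consisted of 6 Beagle dogs (2 males and 4 females) of the same age range, patched in the same way. Untreated skin of the sensitized dogs, taken at 0 hr, was the other reference.

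Atopic skin reacts to an allergen patch in stages. Resident cells that meet the allergen, among them mast cells carrying IgE, keratinocytes, fibroblasts and endothelium, release cytokines and chemokines, the vessel wall then displays adhesion molecules, and granulocytes, monocytes and lymphocytes follow. CC chemokines mainly attract monocytes, eosinophils and lymphocytes, and the CXC chemokines related to CXCL8 attract neutrophils. Each biopsy was a mixture of all these cells, so fewer or more cells of a type and less or more RNA per cell cannot be told apart in any value given here.

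Levels are given as scaled signal, the fluorescence of a probe after each array was brought to a common 75th percentile, and differences as log2 of allergen over saline, with the standard error (SE) of the fit. A scaled signal ranks samples for 1 probe and does not rank genes. The median signal of the 12 arrays before scaling lay between 83.59 and 127.71, no spot was saturated, and 69.26 to 74.84% of spots were well above background on 11 arrays. The allergen array of dog 2839 stood apart with 80.03%. It was hybridized on another slide than the saline array of that dog, whereas the other 5 dogs had both arrays on the same slide. Results are therefore also given without dog 2839.

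At the allergen site, 439 probes were higher (1.04% of those tested) and 73 were lower (0.174%) than at the saline site at a Benjamini-Hochberg adjusted p under 0.05 and a fold change of at least 1.5. Of these, 422 and 67 probes moved the same way in 6 of 6 dogs. The calls came from a paired fit of the same dogs, which favours this, and the share over all probes was not counted. The median log2 difference over all 42023 probes was -0.005. Without dog 2839 the counts were 381 and 61. A gene symbol could be given to 1237 measured genes, each read by its brightest probe, and of these 97 were higher (7.84%) and 10 were lower (0.808%). Symbols came from RefSeq accessions or from the study's 24 hr list, the genes it selected from the later biopsies of the same dogs. Of the 450 measured genes on that list, whichever way they were named, 79 were higher (17.6%) and 9 lower (2%), and of the 787 other genes 18 were higher (2.29%) and 1 was lower (0.127%). The list was chosen on arrays of the same animals and is no independent evidence of a direction, and it raises the shares over named genes.

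CCL2 and CCL8, which both attract monocytes, were far higher at the allergen site, and their levels at the 2 sites did not overlap. CCL2 had a scaled signal of 8762 to 44248 (median 15308) at allergen sites and 1955 to 3244 (median 2550) at saline sites. The log2 difference was 2.85 ± 0.42 (SE, n = 6 dogs), a 7.23-fold rise with an adjusted p of 8.23e-05. CCL8 lay between 830 and 3794 (median 1560) at allergen sites and between 169 and 293 (median 220) at saline sites, a log2 difference of 2.98 ± 0.42, 7.89-fold, with an adjusted p of 4.68e-05. Every dog contributed to both rises. By dog, the CCL2 difference was 3.48 in dog 2838, 2.65 in 2839, 2.46 in 2840, 2.16 in 2841, 2.33 in 2853 and 4.04 in 2855. CCL8 gave 3.66, 3.06, 2.45, 2.24, 2.54 and 3.92 in the same order. Both probes of CCL2 rose, and of the 2 probes of CCL8 the dimmer one, at 1.33, did not pass.

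GFI1, a zinc finger repressor of transcription in granulocyte and lymphocyte development, rose from a low level. Its scaled signal was 45.5 to 106 (median 72.6) at allergen sites and 24.6 to 35.0 (median 28.4) at saline sites, a log2 difference of 1.31 ± 0.18 (SE, n = 6), 2.47-fold, with an adjusted p of 4.68e-05. The order of the dogs was not that of the chemokines. GFI1 differed by 1.40 in dog 2838, 1.74 in 2839, 1.44 in 2840, 1.09 in 2841 and 1.61 in 2853, and by 0.56 in dog 2855, the animal with the largest CCL2 and CCL8 rises.

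**Figure D1:**
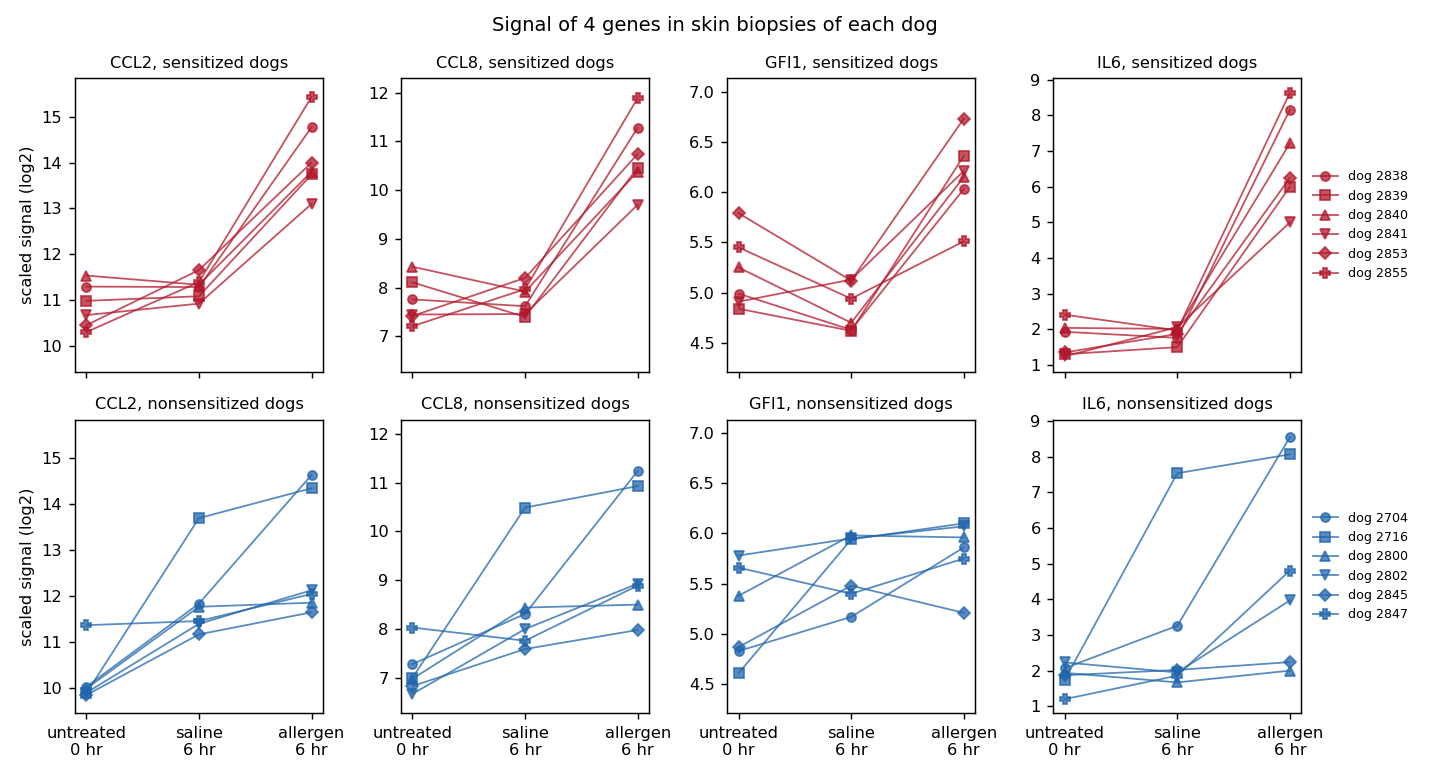
Scaled signal (y axis, log2) of CCL2, CCL8, GFI1 and IL6 in untreated skin at 0 hr and at the saline and allergen sites at 6 hr (x axis), each line joining the arrays of 1 dog, with sensitized dogs in the upper row and nonsensitized dogs in the lower row. In sensitized dogs every line rises from saline to allergen, from a CCL2 median of 2550 to 15308 on the linear scale. The lines of nonsensitized dogs also rise in 6 of 6 dogs for CCL2, CCL8 and IL6, and in 4 of 6 for GFI1. Nonsensitized dogs 2704 and 2716 stand above their group for CCL2, CCL8 and IL6 at the allergen site.

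The 14 named genes described here as the largest rises were cytokines and chemokines, acute-phase and matrix proteins, an adhesion molecule, enzymes and an immune checkpoint ligand. They were chosen among the 7.84% of named genes called higher and for a rise in 6 of 6 dogs. In 12 of the 14 every allergen value lay above every saline value, which held for 68 of the 1237 named genes (5.5%), and the choice by size favours this. IL6, the cytokine that drives the acute-phase response, had the largest fitted difference. It measured 32.0 to 398 (median 113) at allergen sites and 2.82 to 4.17 (median 3.79) at saline sites, where 0 of 6 arrays were well above background. Set against the detection limit of the arrays, IL6 was at least 8.17-fold higher. The fitted log2 difference of 5.01 ± 0.70, its adjusted p of 4.68e-05 and the rank of IL6 rest on saline values below that limit. The filter kept IL6 through its allergen arrays alone. Both IL6 probes passed.

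CXCL8, the main neutrophil chemokine, had a wide spread. Allergen sites measured 89.0 to 2685 (median 183) and saline sites 10.3 to 60.2 (median 19.8), a log2 difference of 3.87 ± 0.85 with an adjusted p of 0.00901. The difference was 6.57 in dog 2838 and 2.11 in the dog with the least. Of the 6 saline arrays 3 were well above background for CXCL8, and the lowest of its 3 probes, at 2.26, did not pass. CCL20, which draws CCR6-bearing dendritic cells and T cells, was abundant on its own scale at both sites, with 5772 to 22331 (median 9988) against 1292 to 3085 (median 1558) and a log2 difference of 2.76 ± 0.44.

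Acute-phase and matrix genes were the next group. SERPINA3, a plasma inhibitor of neutrophil and mast cell proteases, measured 129 to 1461 (median 317) against 20.4 to 36.2 (median 29.6), a log2 difference of 3.75 ± 0.61. PTX3, a soluble pattern receptor, measured 80.1 to 655 (median 176) against 14.5 to 24.5 (median 20.2), a difference of 3.24 ± 0.58, with 4 of the 6 saline arrays well above background. TNFAIP6, a hyaluronan-binding protein made in inflamed tissue, measured 868 to 5017 (median 1892) against 188 to 264 (median 214), a difference of 3.19 ± 0.55. All of their allergen values exceeded all of their saline values. ADAMTS4, a protease that cuts aggrecan and versican, measured 2928 to 16473 (median 5657) against 570 to 1110 (median 830), with a log2 difference of 3.01 ± 0.60.

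Among the remaining large rises, PTGS2, the inducible enzyme of prostaglandin synthesis, measured 218 to 1079 (median 291) at allergen sites and 43.9 to 68.2 (median 61.1) at saline sites, a log2 difference of 2.86 ± 0.43. SELE, the selectin on which leukocytes roll along activated endothelium, measured 1198 to 3409 (median 1615) against 209 to 459 (median 311), a difference of 2.53 ± 0.38. CD274, the ligand of the T cell checkpoint receptor PD-1, measured 118 to 457 (median 202) against 27.3 to 67.9 (median 44.0), a difference of 2.30 ± 0.39. For these genes too the sites did not overlap. They did overlap for S100A8, a calcium-binding protein abundant in neutrophils and in stressed keratinocytes, with 11976 to 87835 (median 34029) against 3915 to 17480 (median 6086) and a difference of 2.28 ± 0.48. SDSL, related to serine dehydratase, overlapped as well at a low level, with 15.2 to 84.0 (median 37.4) against 3.94 to 17.9 (median 7.07) and a difference of 2.29 ± 0.47, and just 1 saline array was well above background.

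**Figure D2:**
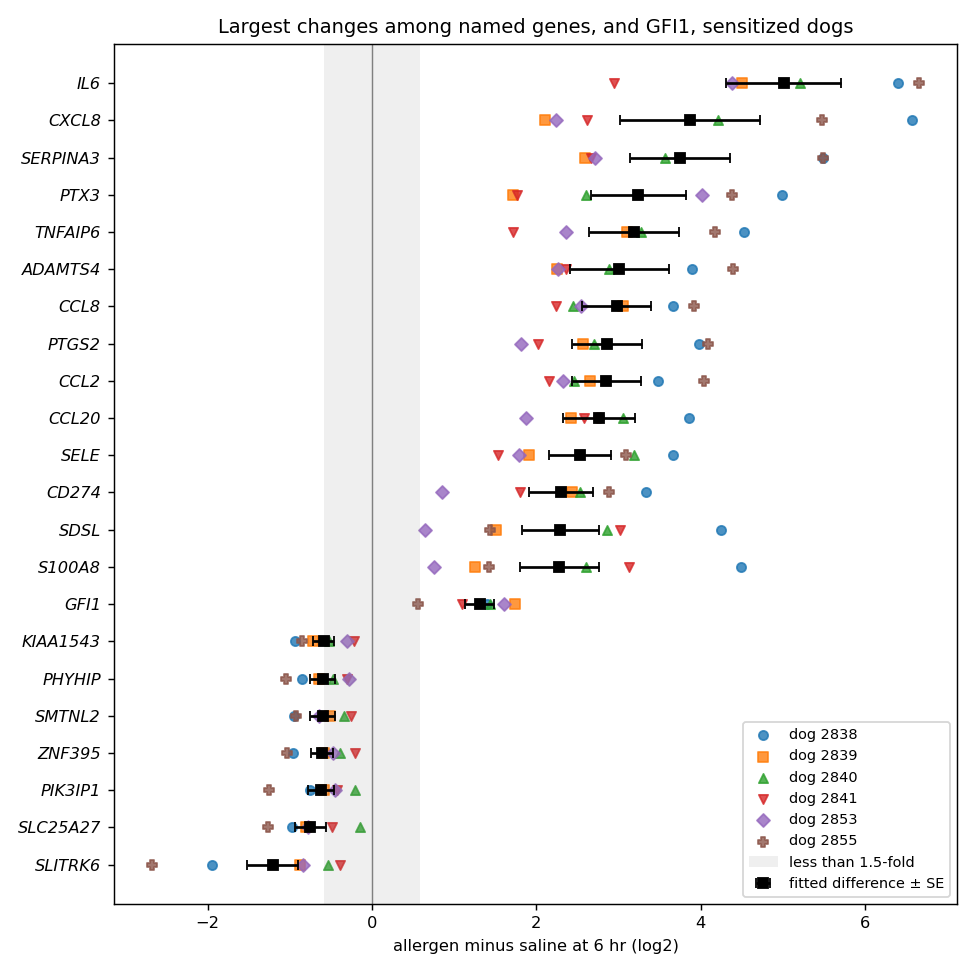
Log2 difference between the allergen and saline sites at 6 hr (x axis) for the 14 large rises, GFI1 and the 7 falls described (y axis), with a coloured symbol for each of the 6 sensitized dogs and black squares with bars for the fitted difference ± SE. IL6 has the largest fitted value, 5.01, from saline values below detection, and SLITRK6 the lowest, -1.21. Apart from GFI1 the genes were chosen for the same sign in 6 of 6 dogs, and the grey band marks differences of less than 1.5-fold.

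Falls were fewer and smaller. Of the 10 named genes called lower, 7 that fell in 6 of 6 dogs are described here, and all 7 are on the study's 24 hr list. SLITRK6, a transmembrane protein best known from neurons, fell by 1.21 on the log2 scale (SE 0.31, adjusted p = 0.0285), with 105 to 471 (median 365) at allergen sites and 515 to 866 (median 657) at saline sites. These ranges did not overlap. SLC25A27, a mitochondrial carrier of the uncoupling protein family, was at 45.0 to 97.7 (median 67.7) against 77.5 to 133 (median 117), a log2 difference of -0.75 ± 0.19. The other 5 had log2 differences between -0.62 and -0.59. They were PIK3IP1, an inhibitor of phosphoinositide 3-kinase, ZNF395, a zinc finger protein, SMTNL2, PHYHIP, and KIAA1543, a microtubule-binding protein. ZNF395 had the smallest adjusted p among them, 0.00692, and its ranges of 3365 to 6685 and 6941 to 8389 did not overlap. In 4 of the 7 every allergen value lay below every saline value, as it did in 22 of the 1237 named genes (1.78%), and here too the genes were chosen among the 0.808% called lower.

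The counts of the gene lists are read against the 7.84% of all named genes and the 17.6% of those on the 24 hr list that were called higher. In the short lists a single call is a share near or above these values and says little about the list. Of 14 measured CC chemokines 7 rose and 0 fell, with a median log2 difference of 0.89 over the 14, beside 0.03 over all named genes. Besides CCL2, CCL8 and CCL20 these were CCL4 (1.76 ± 0.41), CCL7 (1.56 ± 0.31), CCL13 (1.27 ± 0.22) and CCL19 (0.90 ± 0.25), ligands for monocytes, eosinophils and, for CCL19, CCR7-bearing lymphocytes and dendritic cells. Of the 14, 6 are on the study's 24 hr list. Of 5 measured CXC chemokines 3 rose (median 0.84). They were CXCL8, the neutrophil ligand CXCL1 (1.04 ± 0.27) and CXCL16 (0.67 ± 0.16), the membrane-bound ligand of CXCR6. Of 6 chemokine receptors 0 passed (median 0.37), with CCR1 at 0.73 ± 0.27 and an adjusted p of 0.133.

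Inflammatory cytokines passed in 3 of 14 cases (median 0.48), with 5 of the 14 on the 24 hr list. Next to IL6 these were TNFSF9, the ligand of the costimulatory receptor 4-1BB, at 1.23 ± 0.29, and IL33, an alarmin of epithelium and endothelium, at 0.86 ± 0.24. The other 11 lay between -0.44 and 1.16. Several genes of interest that did not pass are named here after their values were seen. TNF measured 58.9 to 95.2 against 51.4 to 70.8, a log2 difference of 0.20 ± 0.12 with an adjusted p of 0.446, and CSF2, a growth factor of granulocytes and macrophages, stood at 1.16 ± 0.35 with an adjusted p of 0.0631. The interferon-inducible chemokine CXCL10 was at 0.84 ± 0.34 (adjusted p = 0.194), and CCL17, a ligand of CCR4 on type 2 T cells, at 0.88 ± 0.39 (adjusted p = 0.242). Among the measured type 2 and epithelial cytokines and receptors, 1 of 2 rose, the oncostatin M receptor OSMR at 0.89 ± 0.20. Of 3 interferon response genes 0 passed, and MX1 was at 0.96 ± 0.45 with an adjusted p of 0.278.

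Of 5 measured feedback regulators, all on the study's 24 hr list, 4 rose (median 1.62). These were PTX3, TNFAIP6, SOCS3, an inhibitor of cytokine receptor signalling, at 1.62 ± 0.29, and BCL3, a nuclear partner of NF-kappaB, at 0.96 ± 0.18. The second SOCS3 probe, dimmer than the first, was at 0.09 and did not pass. Of 3 immediate early genes 2 rose, MYC from 894–1108 to 1359–3357 (1.02 ± 0.20) and NR4A1 from 63.0–81.6 to 88.9–205 (0.96 ± 0.17), without overlap between the sites. Among the lymphoid and myeloid transcription factors GFI1 and CEBPD (1.27 ± 0.23), a factor of the acute-phase response, rose, and 4 other members, between -0.50 and 0.68, did not pass.

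Genes of the vessel wall and of arriving leukocytes gave a mixed account. Of 3 endothelial activation genes SELE and ICAM1 rose, ICAM1 being the ligand of leukocyte integrins, with 2360 to 7429 (median 3394) at allergen sites, 910 to 1203 (median 1123) at saline sites and a difference of 1.82 ± 0.30. VCAM1, chosen for mention after its value was seen, was at 0.06 ± 0.25, and its sign turned with normexp background correction combined with quantile scaling and without dog 2839. Of 7 monocyte and macrophage genes 3 rose (median 0.88). They were the chitinase-like protein CHI3L1 (1.89 ± 0.46), the high-affinity IgG receptor FCGR1A (1.84 ± 0.46) and the endotoxin coreceptor CD14 (1.17 ± 0.27). The summed scaled signal of the 7 was 2861 to 6118 at allergen sites and 1842 to 4245 at saline sites, which overlapped. Of 3 granulocyte genes S100A8 rose and the others were at -0.11 and 0.35. Of 5 T cell genes 1 rose, the costimulator ICOS at 0.74 ± 0.20, while the coreceptor CD4, named after its value was seen, was at 0.22 ± 0.18.

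Mast cell genes passed in 2 of 6 cases (median 0.36). HDC, which makes histamine, measured 65.3 to 152 (median 115) at allergen sites and 27.3 to 69.9 (median 51.4) at saline sites, a log2 difference of 1.22 ± 0.20 with an adjusted p of 0.000582, and both of its probes rose. MS4A2, the beta chain of the high-affinity IgE receptor, was at 0.59 ± 0.14, just past the fold limit. The other 4 mast cell and IgE receptor genes lay between -0.08 and 0.56. The highest of them, FCER1G, the gamma chain of Fc receptors, did not pass by its brighter probe but did by its other one, at 0.67 with an adjusted p of 0.0451, and is named after its values were seen. Of 6 pattern receptors TLR2 rose by 0.68 ± 0.19, and its second probe, at 0.49, did not pass.

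**Figure D3:**
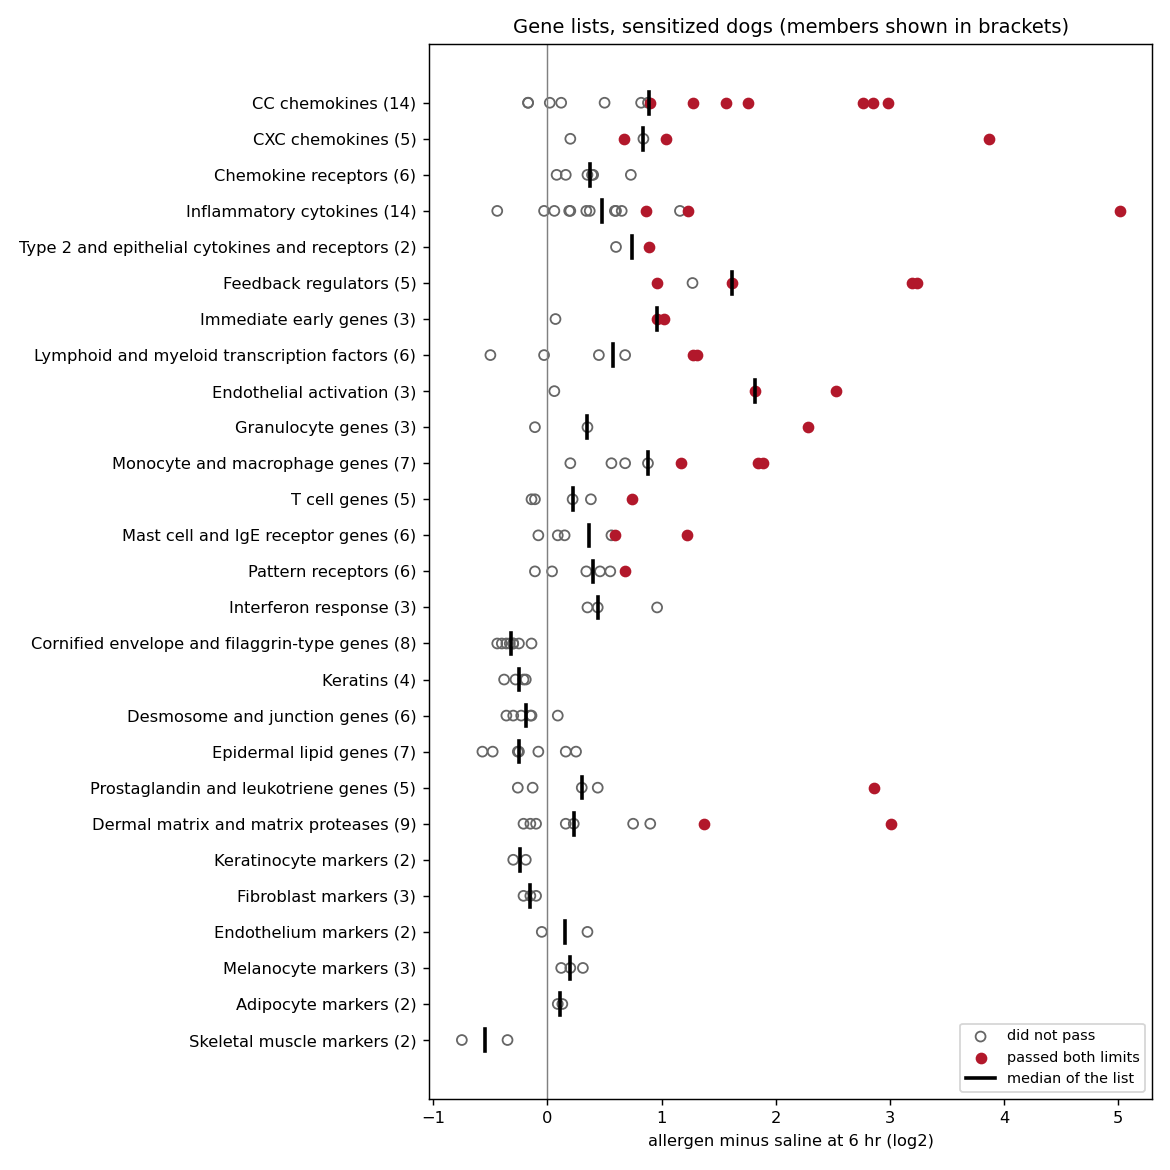
Log2 difference between allergen and saline sites at 6 hr in sensitized dogs (x axis) for members of the gene and marker lists (y axis, number shown in brackets), with red points for members past both limits in either direction, open circles for the others and a black bar at the list median. Medians are 0.89 for the CC chemokines and 1.62 for the feedback regulators, and the keratins and cornified envelope genes all lie below 0 with 0 calls.

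Read by the brightest probe, no member of the epidermal barrier lists was called. All 8 measured cornified envelope and filaggrin-type genes had negative values, from -0.44 to -0.14 with a median of -0.32, and KPRP, a proline-rich envelope protein at -0.44 ± 0.20, had an adjusted p of 0.246. All 8 are on the study's 24 hr list. The 4 keratins had a median of -0.25, the 6 desmosome and junction genes -0.19 and the 7 epidermal lipid genes -0.25. PPARA, a nuclear receptor for fatty acids, came nearest, with 377 to 859 (median 662) at allergen sites, 785 to 1006 (median 913) at saline sites, a log2 difference of -0.57 ± 0.13 and an adjusted p of 0.0132, which missed the fold limit. Of its 3 probes another passed both limits, at -0.60 with an adjusted p of 0.0321. Of 5 prostaglandin and leukotriene genes PTGS2 alone rose. Of 9 dermal matrix genes ADAMTS4 and TIMP1 rose, TIMP1, an inhibitor of matrix metalloproteinases, by 1.37 ± 0.36.

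Markers of the resident cell types had 0 calls in any of the lists that could be measured, 2 keratinocyte, 3 fibroblast, 2 endothelial, 3 melanocyte, 2 adipocyte and 2 skeletal muscle genes. The keratin KRT1 and the collagen COL1A1, defining genes of epidermis and dermis, were bright on every array, at 96425 to 152617 and 59556 to 79128 at allergen sites and 108083 to 165497 and 48747 to 113571 at saline sites. The defining markers of skin were thus present at both sites. The summed keratinocyte markers ranged from 101888 to 159342 at allergen sites and 115174 to 174723 at saline sites, the fibroblast markers from 370047 to 458478 and 334517 to 577508, and the endothelial markers from 25871 to 38599 and 28048 to 33339. All of these ranges overlapped. Skeletal muscle markers summed to 69.4 to 83.8 and 80.0 to 219. DES was lower at the allergen site in every dog, at -0.75 ± 0.60 with an adjusted p of 0.624. No B cell or erythrocyte marker was measured, so those cells were not assessed.

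The dogs differed widely in the size of the response. Over the 14 large rises, the median log2 difference within a dog was 4.11 in 2838 and 4.06 in 2855, and 2.25 to 2.87 in the other 4. Dog 2838 had the largest difference in 8 of the 14 genes and dog 2855 in 6. The smallest belonged to 2841 in 5 genes, 2853 in 5 and 2839 in 4. Dogs 2838 and 2855 had their arrays on slide 6, and dogs 2840, 2841 and 2853 theirs on slide 5, so that slide and dog cannot be told apart in this contrast of sizes. Within both slides the direction was the same. CCL2 differed by 2.16 to 2.46 in the 3 dogs of slide 5 and by 3.48 to 4.04 in the 2 dogs of slide 6, and PTGS2 by 1.81 to 2.70 and 3.98 to 4.09. GFI1 differed by 1.09 to 1.61 and by 0.56 to 1.40.

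Individual dogs decided how many probes were called. Without dog 2838 there were 87 probes higher and 8 lower, and without dog 2855 there were 152 and 5. Without dog 2841, the count of lower probes was 124. With the pairing by dog left out, 220 and 6 probes were called. Of the 14 rises, 10 passed without dog 2838, 13 without dog 2855 and 14 without any 1 of the other 4 dogs. CCL2, CCL8, IL6, SERPINA3, PTX3, TNFAIP6, PTGS2, CCL20, SELE and CD274 passed in all alternatives run for them. IL6 and PTX3 entered the comparison through their allergen arrays alone. The alternative with detection on all arrays of both sides could not include them. The sizes of these rises were less stable where the saline signal was dim. With normexp background correction (offset 50) and quantile scaling the log2 difference was 1.56 for IL6, 1.60 for PTX3, 2.35 for SERPINA3 and 1.40 for CD274, so the bound given for IL6 holds for the main scaling alone. GFI1 passed in all but normexp background correction with quantile scaling, where it came just short of the fold limit. CXCL8 had an adjusted p of 0.142 without dog 2838 and 0.0626 without dog 2855, and ADAMTS4, SDSL and S100A8 had 0.0593, 0.102 and 0.147 without dog 2838. SDSL and S100A8 also did not pass without the pairing (adjusted p = 0.0548 and 0.0933) or on the 12 arrays alone, and SDSL did not pass with normexp and quantile scaling, where its log2 difference was 0.50. Of the 7 falls, 0 passed without dog 2838 and 0 without dog 2855, with adjusted p-values up to 0.248, and 2 of the 7 passed without the pairing. On the 12 arrays alone 0 of the 7 falls passed, and with normexp and quantile scaling 3 did. Without dog 2839, all 14 rises and 3 of the 7 falls passed, and GFI1 was at 1.22 with an adjusted p of 0.00134.

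**Figure D4:**
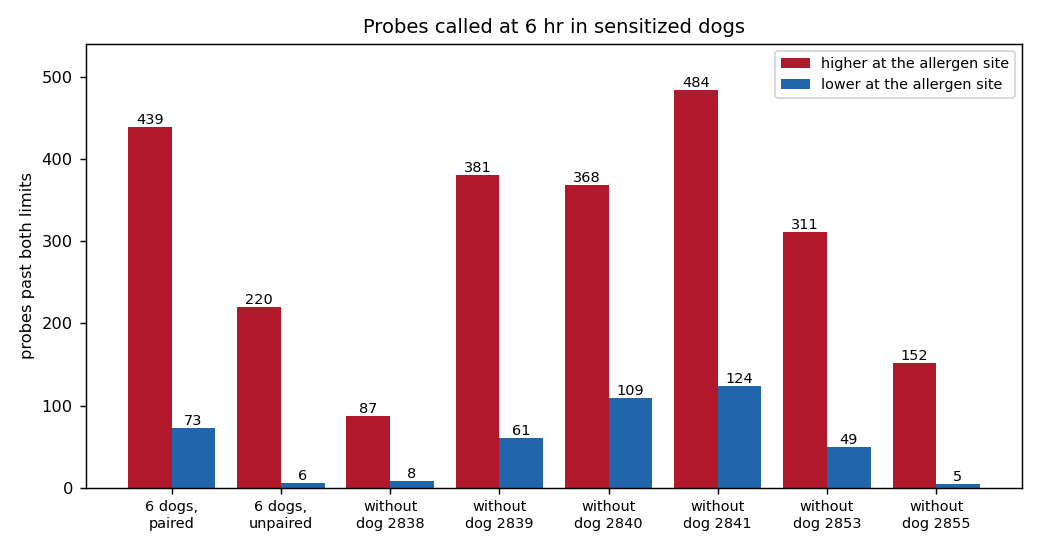
Number of probes past both limits at 6 hr in sensitized dogs (y axis), higher (red) or lower (blue) at the allergen site, with all 6 dogs paired or unpaired and without each dog in turn (x axis). With all 6 dogs paired there were 439 higher and 73 lower, the higher counts range from 87 without dog 2838 to 484 without dog 2841, and the lower counts from 5 without dog 2855 to 124 without dog 2841.

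The gene groups changed with these dogs as follows. CC chemokines called higher numbered 4 of 14 without dog 2838, 5 without dog 2855 and 4 without the pairing. CXC chemokines, 3 with all dogs, numbered 0 without dog 2838 and 0 without dog 2855, and monocyte and macrophage genes gave the same counts. Dermal matrix genes, 2 with all dogs, numbered 0 and 1, and immediate early genes, 2 with all dogs, numbered 2 and 1. Inflammatory cytokines numbered 1 without dog 2838 and 2 without dog 2855. Feedback regulators numbered 4 and endothelial activation genes 2 in each of these settings. Mast cell genes had 1 call in each, and ICOS passed in none of them, nor without dog 2839. TLR2 and S100A8 did not pass without dog 2838 or without the pairing, and OSMR did not pass without dog 2838 or without dog 2855.

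In the nonsensitized dogs, the same patch gave 24 probes higher (0.0571%) and 1 lower (0.00238%). None of the 14 genes, nor GFI1, was called there, and the gene lists held 0 calls. The test of the difference between the contrasts of the 2 groups of dogs called 0 probes in either direction (0%), with a smallest adjusted p of 1 by limma. An unadjusted p under 0.05 was found for 875 probes (2.08%), which is below the 5% that this limit passes where nothing differs. Such a share can also come from a test that is too strict, which was not tested. Of the 14 large rises 12 had an unadjusted p under 0.05, and GFI1 had 8.53e-05 by limma. The choice of these genes favours this. With 0 calls after adjustment, the response of sensitized dogs was not shown to differ from that of nonsensitized dogs for any gene. CCL2 measured 3188 to 25292 (median 4340) at nonsensitized allergen sites and 2288 to 13177 (median 3129) at their saline sites, a log2 difference of 0.89 ± 0.42 and 1.96 ± 0.59 less than in sensitized dogs. CCL8 was at 0.98 ± 0.42, with a difference of 2.00 ± 0.59 between the groups, and GFI1 at 0.18 ± 0.18, with a difference of 1.13 ± 0.26. GFI1 measured 37.1 to 68.8 (median 60.3) at nonsensitized allergen sites, which overlapped the sensitized range of 45.5 to 106. At nonsensitized saline sites it measured 35.9 to 63 (median 53.1), wholly above the 24.6 to 35 (median 28.4) of sensitized saline sites. The study listed CCL2, CCL8 and GFI1 for this same contrast on these arrays, so their differences are no independent evidence. All 14 of the large rises had the larger value in sensitized dogs, which the choice of the genes favours. In 5 of the 14 the nonsensitized dogs were also higher at the allergen site in 6 of 6 animals.

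Nonsensitized dogs were far from uniform. Dog 2704 had large allergen differences, 2.80 for CCL2, 4.87 for TNFAIP6 and 4.57 for ADAMTS4, where the next dog had 0.73, 1.28 and 0.81. In dog 2716 the saline site was already high, with 186 for IL6, 13177 for CCL2 and 1441 for CCL8, whereas the medians of the 6 saline sites were 3.95, 3129 and 287. Only 2 of the 6 nonsensitized dogs had both 6 hr arrays on the same slide, against 5 of 6 sensitized dogs. With the slide as a block, the test of the difference between the groups called 0 probes as well. The sex ratio was 2 males to 4 females here and 4 to 2 in the sensitized dogs, and its part in these values was not tested.

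**Figure D5:**
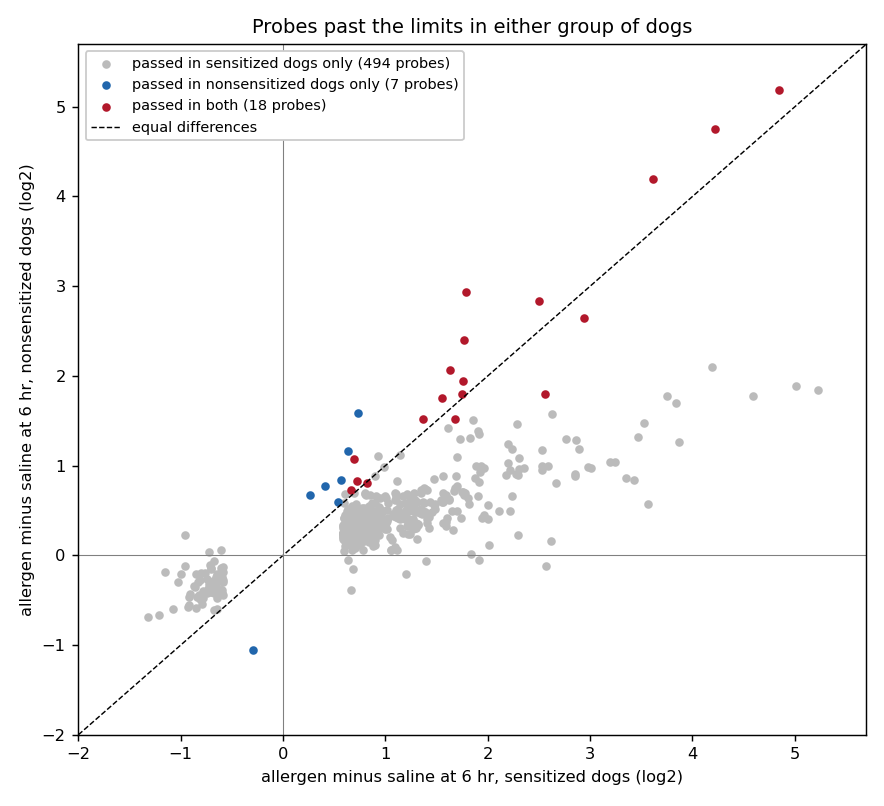
Log2 difference between allergen and saline sites at 6 hr in nonsensitized dogs (y axis) against sensitized dogs (x axis) for the probes past the limits in either group, with a dashed line at equal differences. The 18 probes that passed in both groups (red) scatter around that line, and most of those that passed in sensitized dogs only (grey), which were chosen on the x axis, lie nearer to 0 on the y axis.

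A small set of probes was called in both groups of dogs. It held 18 probes, 18 of the 439 higher in sensitized dogs and 18 of the 24 higher in nonsensitized dogs, and 0 of them had a gene symbol. The identifier TC64020 measured 22.7 to 250 (median 187) at sensitized allergen sites and 3.07 to 8.07 (median 3.94) at their saline sites, where 0 of 6 arrays were well above background. It was at least 8.65-fold higher at the sensitized allergen sites. Its adjusted p of 3.52e-07 rests on saline values below detection, and the filter kept the probe through its allergen arrays alone. At nonsensitized allergen sites it measured 65.2 to 379 (median 145), against 2.92 to 8.06 at saline sites. Its lowest allergen value, 22.7, came from dog 2853. Another 2 probes, noticed after their values were seen, were likewise well above background on 5 or 6 allergen arrays of both groups and on at most 1 saline or untreated array.

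Probes without a symbol, these 18 included, made up 354 of the called probes in both directions together. The largest fitted rise among them was ENSCAFT00000006675, with 57.8 to 828 (median 219) at allergen sites, 4.31 to 27.3 (median 4.51) at saline sites, a log2 difference of 5.23 ± 0.81 and both probes called. Of the 6 saline arrays 1 was well above background, so the size of this rise rests on values near or below detection. In nonsensitized dogs it stood at 1.84 ± 0.81 and did not pass. The largest fitted falls were TC46587, from a median of 76.5 at saline sites to 33.0 at allergen sites (-1.32 ± 0.27), and ENSCAFT00000001192, from 26.0 to 11.6 (-1.15 ± 0.23). Both had sites that did not overlap, but of the 6 allergen arrays 1 was well above background for ENSCAFT00000001192, so the size of that fall is uncertain.

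Compared with untreated skin of the same dogs, the allergen site had 1015 probes higher (2.42%) and 2424 lower (5.77%), and the saline site 72 higher (0.171%) and 2810 lower (6.69%). Most of these were lost when the slide was added as a block, an alternative chosen after seeing the data, which left 399 and 138 probes for allergen and 1 and 2 for saline. Untreated and allergen arrays shared a slide in 2 of 6 dogs, and untreated and saline arrays in 1 of 6. All 14 of the large rises were called higher at the allergen site than in untreated skin, and 0 of them were called between saline and untreated skin, where CCL20 came to 1.07 ± 0.44 (adjusted p = 0.0722). Untreated skin measured 1267 to 2975 (median 1836) for CCL2, 148 to 344 (median 196) for CCL8 and 2.36 to 5.31 (median 3.19) for IL6. The CCL2 difference between allergen and untreated skin was 3.26 ± 0.42 and that between saline and untreated skin 0.41 ± 0.42 (adjusted p = 0.521). GFI1 was at 28.5 to 55.3 (median 34.9) in untreated skin, which reached into the allergen range. It was 0.96 ± 0.18 higher at the allergen site (adjusted p = 0.000253) and -0.35 ± 0.18 at the saline site (adjusted p = 0.174).

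At 24 hr the allergen minus saline differences in the sensitized dogs, from the same fit with 1 array fewer, were 0.16 ± 0.44 for CCL2, 0.29 ± 0.44 for CCL8, 0.02 ± 0.20 for GFI1 and 0.38 ± 0.74 for IL6. The other large rises of 6 hr were at 2.95 ± 0.50 (SDSL), 2.46 ± 0.51 (S100A8), 1.54 ± 0.40 (SELE), 1.49 ± 0.65 (SERPINA3), 1.43 ± 0.47 (CCL20), 1.43 ± 0.90 (CXCL8), 1.22 ± 0.41 (CD274), 0.64 ± 0.45 (PTGS2), 0.33 ± 0.64 (ADAMTS4), 0.15 ± 0.58 (TNFAIP6) and -1.06 ± 0.61 (PTX3) at 24 hr. The change between the time points was not tested.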

How the data were processed

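Skin biopsies of 12 dogs gave 60 arrays in 10 groups of 6. The authors hybridized 1-colour Agilent canine arrays and deposited the scanner files, whose processed signal is a background-subtracted intensity from Agilent Feature Extraction (10.7.3.1 in 58 files). The deposited value table of the series held the same intensities. Here, control spots and outlier flags were left out, and log2 intensity was taken relative to the 75th percentile of each array and averaged per probe. Contrasts were fitted with limma 3.58.1 in R 4.3.3 on 59 arrays (without the 24 hr allergen array of dog 2839), with the group means and the dog as a block. The scripts were tested on simulated data. Calls needed a Benjamini-Hochberg adjusted p under 0.05 and a 1.5-fold change. The number of arrays limits the precision. Array pairs share a dog by the labels, and deviations of the 2 arrays of a dog from their group means correlated at a median r of 0.436 (6 pairs) against -0.108 between dogs (30 pairs). Taking deviations from the mean of the same 6 dogs pushes the values between dogs below 0. In 5 of the 6 dogs both arrays shared a slide, so dog and slide cannot be told apart in the 0.436. Of 54601 identifiers, 1609 were named, 1067 through RefSeq accessions (UU_Cfam_GSD_1.0), 540 through the study's 24 hr list and 2 through its other tables. No sequences are shown, and a few genes and what rests on them are not reported here. Columns of the authors' own comparisons were not used. Named genes were CCL2, CCL8 and GFI1, the 15 largest rises and up to 15 largest falls with 6 of 6 dogs agreeing in sign, the called members of 21 gene lists and 8 cell type marker lists (or, in a list without calls, the 2 largest differences), at most 2 unnamed identifiers in each direction, and genes marked in the text as chosen after their values were seen. The comparison, its members and the lists were chosen with earlier results of these data known. Alternatives covered the pairing, scaling, background, filters, slide, probe choice, call limits and each dog.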

Additional observations from a re-analysis of the deposited data

Results flagged for a closer look

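Over the largest rises and falls, 9 values lay apart from the other 5 dogs of their group by a gap test (88 groups of 6 were tested, and chance alone marks about 1 in 20). Of these, 8 were log2 differences between allergen and saline sites in the nonsensitized dog 2704. They were 2.80 for CCL2 (next dog 0.73), 2.93 for CCL8 (1.13), 4.87 for TNFAIP6 (1.28), 4.57 for ADAMTS4 (0.81), 3.27 for CCL20 (1.28), 4.06 for SDSL (1.63), -1.39 for SLC25A27 (-0.50) and -1.52 for SMTNL2 (-0.50). The remaining value was the log2 level of CCL20 at the saline site of the sensitized dog 2855, 11.59 where the next dog had 10.72.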

How the results depend on the processing

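In the sensitized dogs, the number of calls depended on the pairing and on single dogs. Without the replicate block 220 probes were higher and 6 lower, where 439 and 73 were called with it. Leaving out 1 dog at a time gave 87 (without 2838) to 484 higher and 5 (without 2855) to 124 (without 2841) lower. Other settings that moved a count by over 1.5 times were normexp background correction with quantile scaling (262 and 18), the 12 arrays alone (243 and 23), no fold limit (699 and 295), the variance stabilizing transformation (45 lower), all 60 arrays (38 lower) and the slide block (147 lower). Probes that also passed in one of these settings had the same sign there. Beyond the named genes treated below, the signs of probes that did not pass there were not compared. In the nonsensitized dogs the counts of 24 and 1 became 13 and 0 without the replicate block, 3 and 0 on their 12 arrays alone, 14 and 2 with the slide block, 12 higher with detection on all arrays, 3 lower with quantile scaling, 2 lower with the variance stabilizing transformation, 2 lower with no fold limit, 66 and 18 at an unadjusted p under 0.002, and 11 (without 2802) to 25 higher and 0 to 2 lower when 1 dog was left out. The difference between the groups of dogs called 0 probes in all alternatives with an adjusted p, and 9 higher and 13 lower at an unadjusted p under 0.002 with a 1.5-fold change. Against untreated skin, the slide block, chosen after seeing the data, gave 399 and 138 for allergen and 1 and 2 for saline. The replicate block left out gave 41 higher for saline, and leaving out 1 dog gave 786 to 1246 higher and 1378 (without 2855) to 4067 (without 2839) lower for allergen and 67 to 137 (without 2838) higher and 1631 (without 2855) to 4600 (without 2838) lower for saline. Without dog 2853 the allergen site had 1572 lower. Among the named genes, signs turned only for ADIPOQ, LEP, MYH7 and VCAM1, none of which was called. With the slide block ADIPOQ was at -0.08 and LEP at -0.09, and with normexp and quantile scaling VCAM1 was at -0.01. Leaving out 1 dog gave 0.00 to 0.25 for ADIPOQ and -0.05 to 0.24 for LEP, with the lowest values without dog 2839, -0.52 to 0.08 for MYH7, above 0 without dog 2841, and -0.05 to 0.13 for VCAM1, below 0 without dog 2839. The causes were not tested. Signal over background limits IL6, CXCL8, PTX3 and SDSL at saline sites, where 0, 3, 4 and 1 of the 6 arrays detected them.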
